A study of Capra hircus with 4 samples.

Results

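The potassium channel genes were taken as every feature of the count matrices whose symbol starts with KCN. This rule gave 94 of 28944 features, and all 94 have an entry in the RefSeq gene table of assembly ARS1.2. The symbols cover pore-forming subunits and the auxiliary proteins that carry a KCN name. The matrices come from droplet single-nucleus RNA sequencing of ovaries of 2 Du'an goats, from a monotocous group with a litter size of 1, and 2 Nubian goats, from a polytocous group with litters of at least 3. All 4 goats were about 3 years old, and their estrus had been synchronised for 17 days with a device that releases 300 mg of progesterone, without other hormones to induce superovulation. Each goat gave 1 library, named here Du'an 1, Du'an 2, Nubian 1 and Nubian 2. Litter size and breed cannot be told apart in this design, because each breed stands for a single litter size group.

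Potassium channels let potassium ions leave or enter a cell and so set its resting membrane potential and the shape of its electrical responses. Voltage-gated alpha subunits open on depolarisation, inward rectifiers and two-pore channels carry the resting conductance, and calcium- or sodium-activated channels open when those ions rise in the cytoplasm. Auxiliary subunits such as the KCNAB, KCNIP, KCNE and KCNMB proteins bind the pore subunits and change their gating or their traffic to the membrane. In vessels these channels control the tone of smooth muscle, in immune cells they hold the potential that drives calcium entry, and in the follicle potassium currents have long been recorded from granulosa cells (GCs).

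By role, the 94 members divided into 39 voltage-gated alpha subunits, 17 auxiliary subunits, 15 inward rectifiers, 15 two-pore channels and 8 calcium- or sodium-activated channels. Together they held 0.702% of the UMIs of the 44734 nuclei kept after filtering. A UMI is the molecular tag that counts an original transcript once. Most of this signal came from few genes: the 3 most abundant members held 68.4% of the UMIs of all KCN genes and the 10 most abundant held 92.1%. KCNC2, a voltage-gated subunit known from fast-spiking neurons, had 369784 UMIs. The auxiliary subunits KCNAB1, KCNIP4 and KCNIP1 had 227280, 205951 and 143824. At the other end, 43 members had under 100 UMIs in the kept nuclei, and 7 of these had none, namely KCNA1, KCNA10, KCNK15, KCNK18, KCNS1, KCNS2 and KCNV1. Across genes, UMI number and the length of the annotated gene had a Spearman's rho of 0.745, which is a description over members that are not independent replicates. Levels are therefore compared below between classes within a gene, and not between genes.

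Nuclei were sorted into classes from genes other than the KCN members, and each class was named from marker genes. The smooth muscle cluster had 8 of 8 markers up, the pericyte cluster 6 of 7, both blood endothelial clusters 8 of 8, both lymphatic endothelial clusters 6 of 6, both T or natural killer clusters 9 of 9 and both macrophage clusters 6 of 6. Mural GC subclusters had 7 to 9 of 9 markers up, and the common progenitor GC subclusters 6 to 8 of 8. The cumulus GC subcluster rested on 4 of 6 markers with a mean log2 fold of 0.63, which is the weakest of these names. No cluster met the oocyte list. The 14 classes took 26385 nuclei. A further 7972 GC nuclei and 10377 other nuclei stayed without a name, the latter from 8.26% of the nuclei in Du'an 2 to 42.2% in Du'an 1. Each goat's mural GCs came almost wholly from a subcluster of its own, and Du'an 1 had no mural GCs, so mural values rest on 3 goats and state and goat are partly tied there. The 4 libraries held 40573246 to 71613892 UMIs, and the median nucleus kept had 1755 to 3292. Between 54 and 131 cell barcodes were shared by any 2 libraries. The doublet caller marked 151 of 48332 nuclei, all in Du'an 2, and so did not work, and removal of the highest doublet scores was tried instead.

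UMIs were summed per goat and class in sums of at least 20 nuclei, scaled to CPM (the UMIs of a gene over all UMIs of the sum, times 1000000) and tested in edgeR by quasi-likelihood, with the goat as a block and p-values adjusted over 14116 genes by the Benjamini-Hochberg method. The contrast of a class was its level minus the average level of all others. A gene is called higher or lower where the adjusted p was under 0.05. Fold changes are given on the log2 scale with their SE, and CPM means with the SD over goats. Because classes were found in the same nuclei, a p does not measure whether the class exists. The spread of a gene was estimated over all classes and goats together. A p and an SE therefore set a difference against that shared spread, and do not show how steady it was over goats within the class named. After the filter on low counts, 50 members were tested, from 28 UMIs upward, and 44 were not, with a median of 12.5 UMIs and at most 221 in KCNC4. A member that passed through the class where it is high had to differ, so counts over the tested members describe them only. By role, 22 of 39 voltage-gated alpha subunits, 10 of 17 auxiliary subunits, 4 of 15 inward rectifiers, 9 of 15 two-pore channels and 5 of 8 calcium- or sodium-activated channels were tested.

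Of the 50 members tested, 49 (98%) were higher in at least 1 class, beside 93.4% of all 14116 genes tested, and KCNH7 was in none. KCNRG and KCNH5 were each higher in 1 class, and KCNS3, called in the most classes, was higher in 6. The share of tested members called higher ran from 12% in T or natural killer nuclei, where 28.5% of all genes tested were higher, to 34% in common progenitor GCs, where 19.2% were. The share of UMIs on KCN genes was 0.952 ± 0.115% (SD, n = 3) in mural GCs, 0.907 ± 0.133% (n = 4) in theca, 0.900 ± 0.0878% in cumulus GCs, 0.856 ± 0.0921% in cycling GCs and 0.804 ± 0.212% in lymphatic endothelium. It was lowest in blood endothelium, at 0.216 ± 0.0596% (n = 4). Without KCNC2, KCNIP4, KCNAB1 and KCNIP1 the order was another: fibroblasts held 3734 ± 2194 CPM, epithelial nuclei 2926 ± 1213 CPM and macrophages 2824 ± 93.5 CPM, against 872 ± 98.5 CPM in mural GCs. In fibroblasts KCNB2 alone had a mean of 2420.5 CPM.

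**Figure D1:**
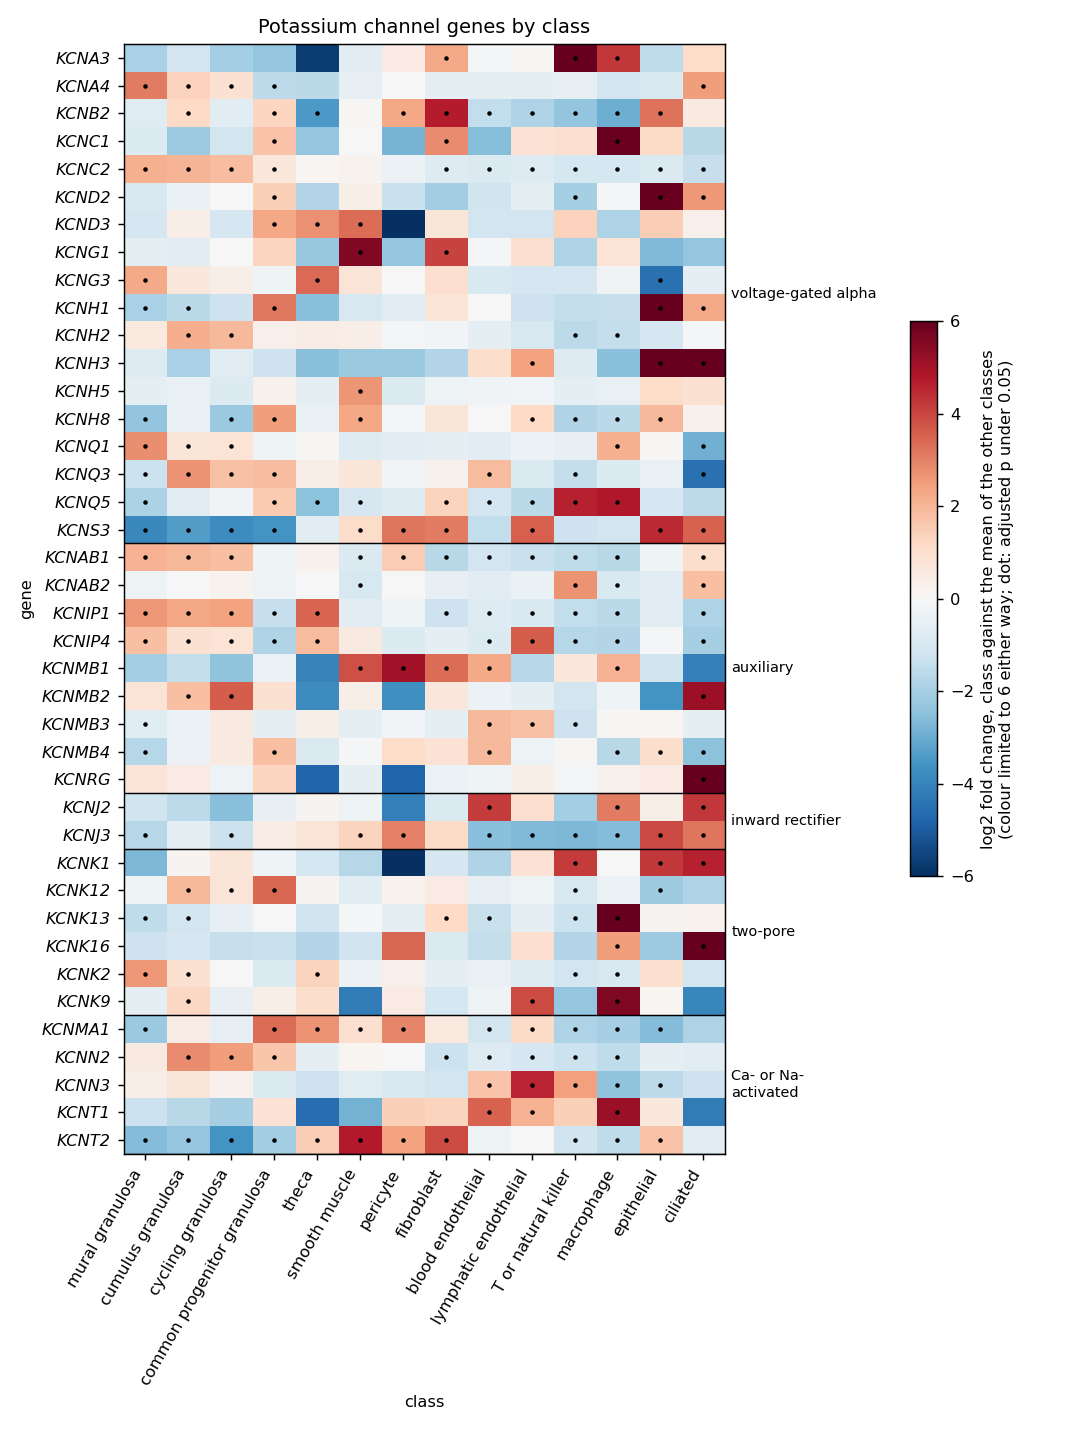
Log2 fold change of each class (columns) against the mean of the other classes for potassium channel genes named by rule (rows, grouped by role), with red for higher, blue for lower and a dot where the edgeR adjusted p was under 0.05. KCNC2, KCNIP1 and KCNAB1 were red across mural, cumulus and cycling GCs, while KCNA3, KCNK13, KCNN3 and KCNT2 each had their strongest red in a single immune, lymphatic or muscle class.

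Granulosa cells surround the oocyte: mural GCs line the follicle wall, cumulus GCs enclose the oocyte, and the common progenitor state is named from the marker genes of the study. In mural GCs 11 of 50 members were higher and 13 lower, against 17.9% and 16.3% of all genes tested. For cumulus GCs the counts were 16 and 6 (all genes 20.6% and 15.4%), for common progenitor GCs 17 and 7 (all genes 19.2% and 10.9%) and for cycling GCs 13 and 6 (all genes 20.9% and 18.1%). The median log2 fold change of the tested members was -0.74 in mural GCs and 0.27 in common progenitor GCs, where the medians over all genes were -0.02 and 0.01.

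Mural, cumulus and cycling GCs shared a set of high members. KCNC2 stood at 3222, 4008, 1850.1 and 2145 CPM in Du'an 1, Du'an 2, Nubian 1 and Nubian 2 in cumulus GCs and at 3052, 2513 and 2238 CPM in the 3 goats with mural GCs. In common progenitor GCs it was lower, at 1439.8, 1138, 834 and 950.0 CPM, and the common progenitor value lay under the cumulus value in every goat. Against the other classes KCNC2 rose by 2.05 ± 0.16 in cumulus, 2.14 ± 0.18 in mural and 1.85 ± 0.16 in cycling GCs (log2, edgeR adjusted p = 4.5e-15, 7.2e-14 and 8.9e-14). KCNIP1, a calcium-binding partner of Kv4 channels, had 1622 ± 227 CPM (SD, n = 3) in mural, 1456 ± 340.0 CPM (n = 4) in cycling and 1249 ± 196 CPM (n = 4) in cumulus GCs. Its mean in common progenitor GCs was 142 ± 125 CPM, and cumulus against common progenitor GCs differed by 3.43 ± 0.42 on the log2 scale (edgeR adjusted p = 6.9e-09). KCNAB1, a beta subunit of Kv1 channels with an oxidoreductase fold, had 2364 ± 438 CPM, 2284 ± 571 CPM and 2152 ± 211 CPM in cumulus, mural and cycling GCs and 555 ± 301 CPM in common progenitor GCs.

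KCNC2 was also counted in immune and endothelial nuclei, at a lower level. Thinned to 1000 UMIs per nucleus, 76.6% ± 12.6 (SD, n = 4) of cumulus nuclei and 28.1% ± 8.38 of T or natural killer nuclei had a KCNC2 UMI, against 91.6% and 53.2% without thinning. Here and below, the class set beside such a share was chosen by hand. It had a lower level and was not the class with the next level. Such shares therefore do not show how particular a gene is to a class. Mean KCNC2 was 432 CPM in T or natural killer nuclei, 401 in macrophages, 472 in blood endothelium and 472 in lymphatic endothelium. In these 4 classes the ratio of KCNC2 to KCNIP1 was 2.86, 2.93, 2.10 and 2.53. Among GCs it was 1.60 in mural, 1.79 in cycling, 2.25 in cumulus and 7.71 in common progenitor GCs. The part of free RNA in these levels was not tested, and no expression of KCNC2 or KCNIP1 is read from them.

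Mural GCs differed from cumulus GCs in 5 members that were higher and 10 that were lower, against 5.61% and 7.71% of all genes. KCNQ1, the alpha subunit of the slow delayed rectifier of heart and epithelia, stood at 147, 299 and 315 CPM in Du'an 2, Nubian 1 and Nubian 2 in mural GCs and 23.7, 35.8, 53.1 and 119 CPM in cumulus GCs of the 4 goats. The ranges did not overlap, and mural GCs were higher by 1.93 ± 0.39 (log2, edgeR adjusted p = 0.00028). KCNA4, an A-type voltage-gated channel, had 125, 48.1 and 16.3 CPM in mural GCs, with the top value in Du'an 2, whose mural subcluster held 125 CPM pooled. It was higher than in cumulus GCs by 1.60 ± 0.46 (adjusted p = 0.013, edgeR). KCNK2, the mechanically gated two-pore channel TREK-1, had 124, 258 and 21.2 CPM, and its order over the goats was another, with Nubian 1 on top and Nubian 2 within the cumulus range of 18.01, 31.9, 30.7 and 27.8 CPM. The last of the 5 was KCNJ5, a G-protein-gated inward rectifier with 6.58, 5.61 and 2.96 CPM in mural GCs, named here after its values were seen, as are the other members given below to complete a short count. The mural excess of KCNK2 was 1.54 ± 0.41 (adjusted p = 0.0059), and KCNG3, a silent subunit that pairs with Kv2 channels, was higher by 1.49 ± 0.47 (adjusted p = 0.026). Both KCNA4 and KCNK2 lost the call without Du'an 2 (log2 difference 0.93 and 1.30) and without Nubian 1 (1.61 and 1.05), and KCNA4 also with DESeq2 (1.38). The KCNG3 call was kept in only 6 of the 10 alternatives that could be run. The scarce KCNJ5, with a cumulus mean of 0.116 CPM, was higher in mural GCs by 4.10 ± 0.74 (edgeR adjusted p = 7.5e-05). Its call was kept in 7 of 7 alternatives. Among GC states KCNJ5 was not particular to mural GCs. Cycling GCs had a mean of 4.99 CPM, above the mean of the other GC states by 2.45 ± 0.53 (edgeR adjusted p = 0.0008). Since each goat filled its own mural subcluster, a difference between goats and one between mural subtypes cannot be told apart.

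Cumulus GCs were marked by KCNN2, KCNQ3 and KCNH2. KCNN2 encodes SK2, a small-conductance channel opened by calcium, and stood at 675, 398, 643 and 1008 CPM in Du'an 1, Du'an 2, Nubian 1 and Nubian 2. Mural GCs held 59.1, 135 and 236 CPM, below every cumulus value, and the difference was 2.13 ± 0.39 in favour of cumulus GCs (log2, edgeR adjusted p = 5.4e-05). Thinned to 1000 UMIs, 36.8% ± 11.7 (SD, n = 4) of cumulus nuclei had a KCNN2 UMI and 4.46% ± 3.05 of macrophages (61.9% and 7.46% unthinned). KCNQ3, an M-current subunit, stood at 86.9, 208, 71.3 and 113 CPM in cumulus and 12.1, 3.92 and 10.8 CPM in mural GCs, and cumulus GCs were higher by 3.68 ± 0.44 (adjusted p = 3.1e-08). That was the widest gap of any member between these states in the cumulus direction. KCNH2, the hERG channel of cardiac repolarisation, was steady over goats at 65.3, 46.7, 47.5 and 45.9 CPM in cumulus GCs and rose by 2.17 ± 0.23 against the other classes (adjusted p = 5.9e-11). Cycling GCs carried the same members: KCNN2 was at 599 ± 344 CPM and KCNH2 at 47.8 ± 23.8 CPM (n = 4), and both were above the mean of the other GC states (0.77 ± 0.27 and 0.85 ± 0.27, adjusted p = 0.043 and 0.027, edgeR). The KCNH2 call was lost without Du'an 1, Du'an 2 or Nubian 2, at 0.64, 0.85 and 0.69, and with KCN and marker genes among the variable genes, at 0.66. The KCNN2 call against the other GC states was kept in only 5 of the 10 alternatives that could be run, with differences from 0.60 to 1.07. In that contrast 7 members were higher and 1 was lower, KCNH8 (all genes 7.89% and 6.31%).

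Common progenitor GCs carried another set, led by KCNK12, KCNMA1, KCNH8 and KCNH1. KCNK12 belongs to the two-pore THIK family and stood at 309, 229, 218 and 249 CPM in Du'an 1, Du'an 2, Nubian 1 and Nubian 2. This was the highest class value in each of the 4 goats, and cumulus GCs followed with 102 ± 21.02 CPM. Against the other classes it rose by 3.44 ± 0.21 (log2, edgeR adjusted p = 2.3e-18), and thinned to 1000 UMIs 19.6% ± 3.13 of these nuclei had a UMI against 1.89% ± 1.73 of T or natural killer nuclei (48.2% and 4.38% unthinned). KCNMA1, the large-conductance BK channel, stood at 516, 207, 166 and 166 CPM, with Du'an 1 far above the other goats. Mural GCs held 3.97, 6.26 and 3.94 CPM, and the difference between both states was 5.20 ± 0.58 (adjusted p = 6.8e-10). KCNMA1 was not particular to common progenitor GCs, whose mean was 264 CPM. Theca held 490, 142, 119 and 213 CPM, a rise of 2.71 ± 0.33 against the other classes (edgeR adjusted p = 1.5e-08), and pericytes had a mean of 212 CPM. Pericytes were the highest class in 2 goats and theca in 1. KCNH8, of the ELK family, had 54.4, 42.3, 16.3 and 50.4 CPM against 1.25, 1.63 and 1.97 CPM in mural GCs. Its mean of 40.9 CPM was matched by 40.1 CPM in smooth muscle. KCNH1, of the EAG family, had a wide spread over goats, at 5.68, 80.5, 31.2 and 7.42 CPM. It was not particular to this state, as its mean was 31.2 CPM here and 295 CPM in epithelial nuclei. Over all members 19 were higher in common progenitor than in mural GCs and 10 were lower (all genes 15.2% and 9.77%). Against cumulus GCs the counts were 12 and 9 (all genes 12.6% and 9.37%).

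**Figure D2:**
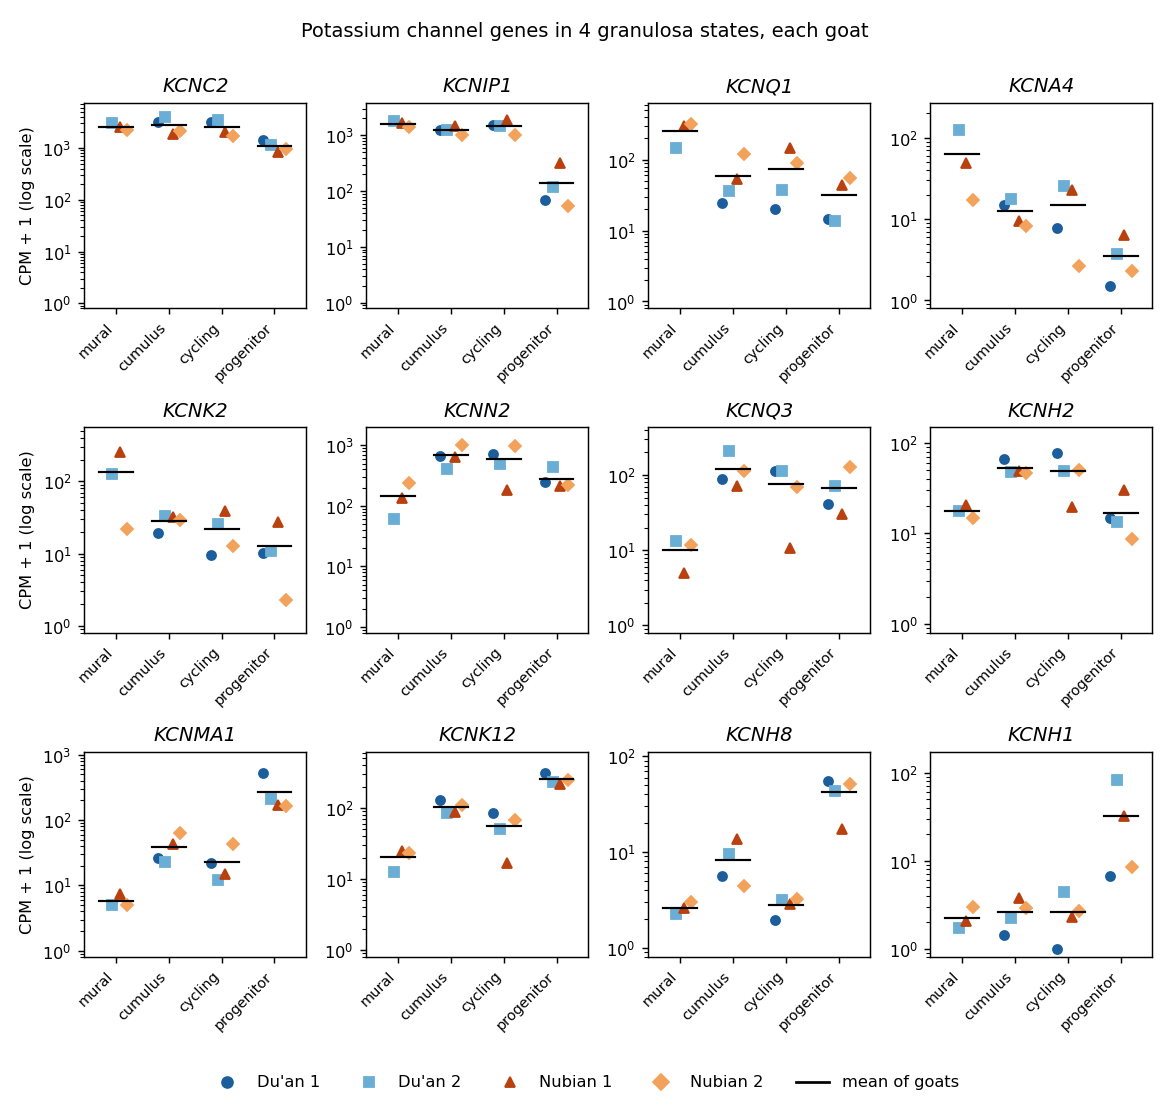
CPM + 1 on a log scale of 12 potassium channel genes (panels) in mural, cumulus, cycling and common progenitor GCs, with a point per goat and a bar at the mean of the goats. KCNQ1, KCNA4 and KCNK2 had their highest mean in mural GCs, KCNN2, KCNQ3 and KCNH2 in cumulus GCs, and KCNMA1, KCNK12, KCNH8 and KCNH1 in common progenitor GCs.

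Smooth muscle nuclei had 12 members higher and 3 lower, KCNQ5, KCNAB2 and KCNAB1 (all genes 18.6% and 6.82%). KCNT2, a sodium-activated channel, was the member with the most UMIs among those that led there. It stood at 815, 841, 654 and 624 CPM in Du'an 1, Du'an 2, Nubian 1 and Nubian 2, above all other classes in each goat, and fibroblasts followed with 765, 611, 239 and 322 CPM. It rose by 4.76 ± 0.19 (log2, edgeR adjusted p = 8.9e-26). Thinned to 1000 UMIs, 43.5% ± 5.40 (SD, n = 4) of smooth muscle and 1.03% ± 0.764 of cumulus nuclei had a KCNT2 UMI (59.9% and 3.57% unthinned). KCND3, an A-type channel, stood at 60.2, 49.8, 11.5 and 46.1 CPM, with Nubian 1 lowest, and KCNH5, of the EAG family, at 22.2, 11.7, 14.3 and 41.3 CPM. KCNG1, another silent Kv2 partner, had 12.7, 4.39, 10.5 and 13.4 CPM. Their fold changes were 3.34 ± 0.48, 2.66 ± 0.32 and 5.57 ± 0.46, in this order. The edgeR adjusted p was 2.7e-07 for KCND3 and 2.6e-09 for KCNH5. KCNG1 could pass the filter on low counts only through smooth muscle, so its test there adds no support, and no p is given. KCNJ8, the pore of the vascular ATP-sensitive channel, was scarce at 6.97, 7.32, 5.23 and 12.5 CPM from 44 UMIs, with a fold change of 4.61 ± 0.50. It passed the filter on low counts only through smooth muscle and pericytes, so its calls there add no support, and no p is given. A cluster of 6402 shallow nuclei without a class name also had 7 of 8 smooth muscle markers up, and held 332 CPM of KCNT2 pooled. Its part in the smooth muscle count was tried by naming it.

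Pericytes, the contractile cells of small vessels, had 11 members higher and 0 lower (all genes 8.01% and 3.33%). The class has 39 to 158 nuclei a goat, so several of these calls rest on few UMIs. KCNMB1, the smooth muscle beta subunit of BK channels, stood at 35.3, 27.6, 19.2 and 0 CPM in Du'an 1, Du'an 2, Nubian 1 and Nubian 2 from 17 UMIs. Its pore partner KCNMA1 stood at 294, 228, 258 and 69.4 CPM from 184 UMIs. Both were lowest in Nubian 2, which has the fewest pericytes, and they rose by 5.04 ± 0.69 and 2.92 ± 0.35 (log2, edgeR adjusted p = 2.1e-07 and 4.5e-09). Smooth muscle came next for KCNMB1 with a mean of 9.51 CPM. The KCNMB1 difference between pericytes and smooth muscle, 1.11 ± 0.64, was not called (edgeR adjusted p = 0.36). KCNJ3, a G-protein-gated inward rectifier, had 412, 166, 200.2 and 79.3 CPM and rose by 3.02 ± 0.40 (adjusted p = 5.2e-08). KCNJ3 was not particular to pericytes, with a mean of 214 CPM there, 338 CPM in epithelial and 192 CPM in ciliated nuclei. Its difference between smooth muscle and pericytes was not called (edgeR adjusted p = 0.07). KCNAB1 was at 3110.1, 2255, 1506 and 1379 CPM in pericytes and KCNC2 at 764 ± 516 CPM, so that the ratio of KCNC2 to KCNAB1 was 0.370 here and 1.19 in cumulus GCs. KCNK3, the acid-sensitive channel TASK-1, and KCNJ8 were called higher from 6 and 5 UMIs only.

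Set against each other, smooth muscle had 5 members above pericytes (KCND3, KCNG1, KCNH5, KCNH8 and KCNT2) and 4 below (KCNK3, KCNAB1, KCNB2 and KCNMA1; all genes 4.77% and 3.29%). KCNT2 was higher in smooth muscle by 2.16 ± 0.38 (log2, edgeR adjusted p = 5.1e-05), while KCNAB1 and KCNMA1 were higher in pericytes by 2.23 ± 0.38 and 1.82 ± 0.48 (adjusted p = 2.8e-05 and 0.009). The KCNMA1 call was lost without Du'an 2 or Nubian 1, at a smooth muscle minus pericyte difference of -1.83 and -1.40. KCND3 and KCNG1 had no UMI in pericytes of any goat. Against a floor of 3 counts over the pericytes, which is 3.84 CPM, smooth muscle was at least 8.85-fold higher for KCND3 and at least 2.83-fold higher for KCNG1. The KCND3 call was lost without Du'an 2, and the KCNG1 call was lost with DESeq2 and without Du'an 1 or Nubian 1. Since KCNG1 was tested only because of its smooth muscle level, its call here adds no support either. KCNH5 had 2 UMIs in pericytes, and the ratio of the pooled levels was 8.03, with an exact 95% interval of 2.18 to 67.0 that covers counting error only, and its call was lost without Du'an 1, Du'an 2 or Nubian 2. KCNB2, a delayed rectifier, was called higher in pericytes at 699.6, 510.3, 362 and 188 CPM against 75.4, 142, 96.6 and 51.9 CPM in smooth muscle, but its direction did not hold under every alternative clustering.

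Blood endothelium had 8 members higher and 10 lower (all genes 20.2% and 9.36%), and lymphatic endothelium 10 and 8 (all genes 18.1% and 8.47%). KCNJ2, the inward rectifier Kir2.1 known to hold the endothelial resting potential, stood at 16.3, 11.99, 15.4 and 5.63 CPM in Du'an 1, Du'an 2, Nubian 1 and Nubian 2 and rose by 4.17 ± 0.43 (log2, edgeR adjusted p = 3.2e-11). KCNJ2 was not particular to blood endothelium. Ciliated nuclei held 9.47 CPM in Du'an 2 and 11.5 CPM in Nubian 2, a rise of 4.24 ± 0.88. KCNQ3, the M-current subunit also high in cumulus GCs, stood at 107, 113, 30.7 and 56.3 CPM and rose by 1.91 ± 0.27 (adjusted p = 1e-07). KCNT1, a sodium-activated channel, and the BK partners KCNMB3 and KCNMB4 had means of 12.4 ± 6.32 CPM, 64.0 ± 8.21 CPM and 58.4 ± 19.2 CPM, and KCNMB3 was near the same level in lymphatic endothelium (56.5 ± 15.3 CPM).

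Lymphatic endothelium was led by KCNN3 and KCNIP4. KCNN3, the small-conductance channel SK3 of endothelium, stood at 318, 1055, 492 and 664 CPM in Du'an 1, Du'an 2, Nubian 1 and Nubian 2, the highest class in every goat. T or natural killer nuclei came next with 188 ± 77.4 CPM and blood endothelium followed with 105 ± 36.7 CPM. It rose by 4.57 ± 0.24 (log2, edgeR adjusted p = 1.8e-21), and 30.4% ± 7.32 (SD, n = 4) of lymphatic nuclei thinned to 1000 UMIs had a UMI against 0.861% ± 0.273 of macrophages (42.3% and 1.58% unthinned). KCNIP4, like KCNIP1 a partner of Kv4 channels, stood at 9073, 5222, 4746 and 4613 CPM, with theca next at 2749.7 ± 1310 CPM. It rose by 3.66 ± 0.23 (adjusted p = 6.9e-19), and 85.1% ± 6.80 of thinned lymphatic nuclei had a UMI (85.9% unthinned), against 19.2% ± 10.5 of T or natural killer nuclei (35.3% unthinned). KCNS3, a silent subunit, and KCNK9, the acid-sensitive channel TASK-3, also rose, with 30.9, 20.5, 35.2 and 25.98 CPM and 18.03, 11.6, 8.59 and 7.09 CPM.

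Between both endothelia, 6 members were higher in blood and 7 in lymphatic nuclei (all genes 6.55% and 7.41%). KCNJ2 and KCNQ3 were higher in blood endothelium by 2.93 ± 0.68 and 2.60 ± 0.43 (log2, edgeR adjusted p = 0.0012 and 7.7e-06). Without Nubian 1 the KCNJ2 difference was 2.26 and not called. In the other direction KCNS3, KCNIP4, KCNK9 and KCNN3 were higher in lymphatic endothelium by 4.70 ± 0.66, 4.16 ± 0.46, 3.92 ± 0.60 and 2.65 ± 0.45 (adjusted p = 2.6e-07, 7.9e-10, 2.1e-06 and 8.6e-06).

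**Figure D3:**
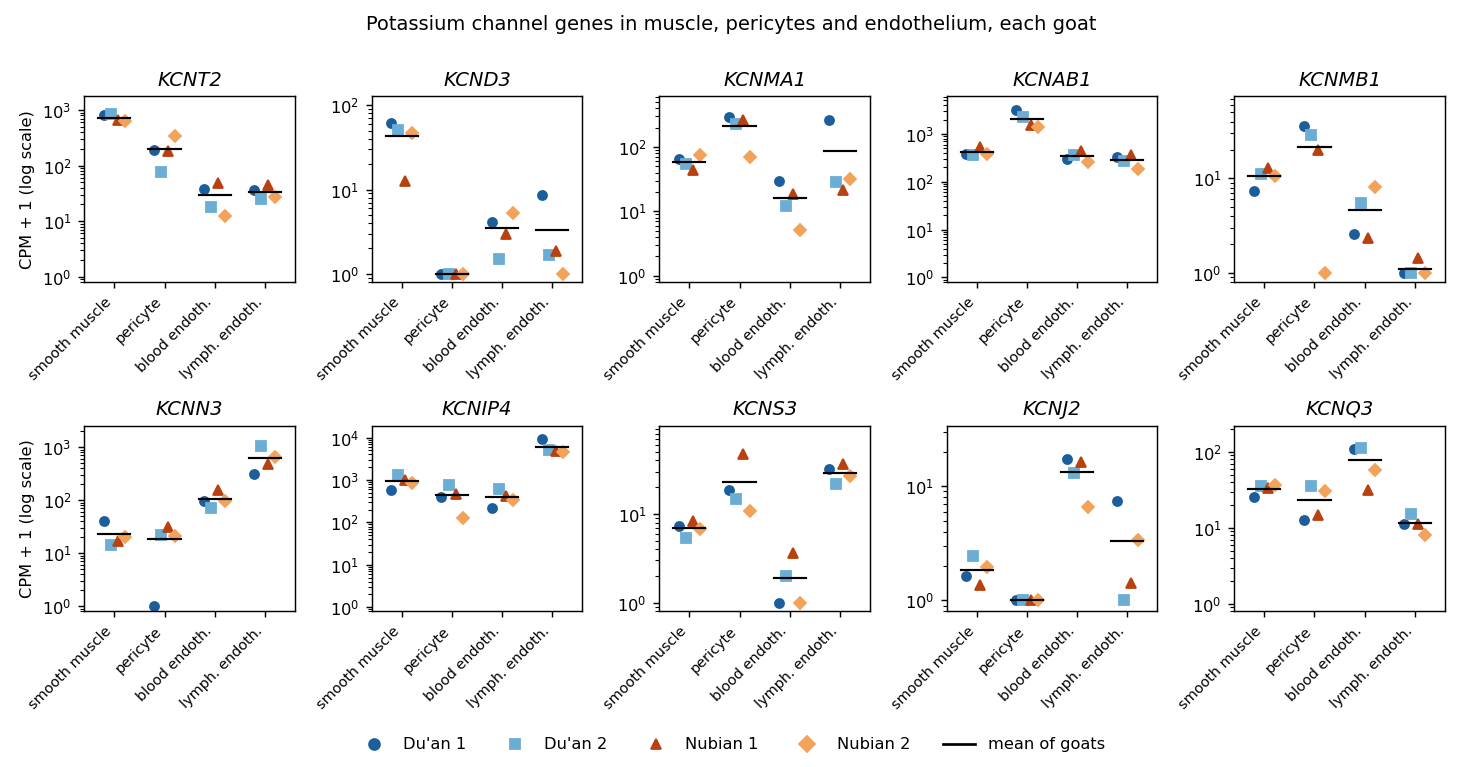
CPM + 1 on a log scale of 10 potassium channel genes (panels) in smooth muscle, pericytes, blood and lymphatic endothelium, with a point per goat and a bar at the mean. The highest mean of KCNT2 was in smooth muscle, that of KCNMA1, KCNAB1 and KCNMB1 in pericytes, KCNJ2 and KCNQ3 in blood endothelium, and KCNN3, KCNIP4 and KCNS3 in lymphatic endothelium, with the KCNS3 points of pericytes and lymphatic endothelium overlapping.

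T or natural killer nuclei had 6 members higher and 20 lower (all genes 28.5% and 25.1%), and macrophages 12 and 15 (all genes 30.3% and 23%). KCNA3, the Kv1.3 channel that sustains calcium entry in lymphocytes, stood at 262, 242, 296 and 175 CPM in Du'an 1, Du'an 2, Nubian 1 and Nubian 2. This was the highest class in every goat, and macrophages came next at 16.4, 37.2, 48.1 and 38.9 CPM. The rise was 7.24 ± 0.22 (log2, edgeR adjusted p = 3.5e-30), and 20.1% ± 2.94 (SD, n = 4) of T or natural killer nuclei thinned to 1000 UMIs had a KCNA3 UMI against 0.1004% ± 0.117 of cumulus nuclei (36.8% and 0.348% unthinned). KCNAB2, a beta subunit of the same channel family, stood at 68.4, 68.8, 45.2 and 47.6 CPM and rose by 2.72 ± 0.20 (adjusted p = 1.9e-16). KCNK1, the weakly conducting two-pore channel TWIK-1, had 125, 76.9, 23.9 and 21.8 CPM, with both Du'an goats above both Nubian goats, and rose by 4.18 ± 0.34 (adjusted p = 1.5e-14). It was not particular to this class. Epithelial nuclei held 13.6, 55.9, 36.4 and 62.5 CPM (4.23 ± 0.42), above T or natural killer nuclei in both Nubian goats. Ciliated nuclei held 34.7 CPM in Du'an 2 and 71.2 CPM in Nubian 2 (4.60 ± 0.58).

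Macrophages were led by KCNK13, the two-pore channel THIK-1 known from microglia. It stood at 655, 501, 595 and 405 CPM in Du'an 1, Du'an 2, Nubian 1 and Nubian 2, against 11.5 ± 15.8 CPM in fibroblasts, the next class, and 0, 2.62, 5.12 and 4.96 CPM in T or natural killer nuclei. It rose by 6.57 ± 0.20 (log2, edgeR adjusted p = 2.4e-31), and 29.9% ± 7.90 (SD, n = 4) of thinned macrophage nuclei had a UMI against 0.559% ± 0.575 of T or natural killer nuclei (36.7% and 0.849% unthinned). KCNK9, KCNT1 and KCNC1, the Kv3.1 subunit, were scarcer, at 44.6, 40.4, 36.4 and 15.97 CPM, 37.6, 30.3, 33.1 and 34.0 CPM and 23.5, 7.67, 21.4 and 9.02 CPM, and each was highest in macrophages in all 4 goats. Their fold changes were 5.58 ± 0.30, 5.20 ± 0.36 and 5.93 ± 0.42, with edgeR adjusted p of 1.8e-20 for KCNK9 and 1e-16 for KCNT1. KCNC1 had 62 of its 101 UMIs in macrophages, and no other class had a mean above 1.02 CPM. It could pass the filter on low counts only through macrophages, so its test and its rank there add no support, and no p is given. KCNQ1, high in mural GCs, was also high here at 96.3, 149, 229 and 151 CPM, a rise of 2.13 ± 0.26 (adjusted p = 1.1e-09).

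KCNQ5, an M-current subunit, was shared by both immune classes. It stood at 1545, 1898, 1587 and 1313 CPM in T or natural killer nuclei and 1752, 1924, 1445 and 1810.4 CPM in macrophages, and fibroblasts, the next class, held 228 ± 190.5 CPM. The rises were 4.63 ± 0.22 and 4.79 ± 0.22 (log2, edgeR adjusted p = 9.8e-24 and 1.7e-24), and the difference between both classes was -0.15 ± 0.39 (adjusted p = 0.86), within the spread of the goats. In that contrast 7 members were higher in T or natural killer nuclei and 9 in macrophages (all genes 12.8% and 16.9%). KCNN3, KCNK1, KCNAB2 and KCNA3 were higher in T or natural killer nuclei by 4.56 ± 0.57, 3.92 ± 0.55, 3.35 ± 0.36 and 2.80 ± 0.34 (adjusted p = 5.2e-09, 1.6e-07, 1.6e-10 and 3.6e-09), and KCNK13 was higher in macrophages by 7.28 ± 0.50 (adjusted p = 1.2e-16). KCNK9 had 176 UMIs in macrophages and 1 in T or natural killer nuclei, a ratio of pooled levels of 225 with an exact 95% interval of 39.8 to 8919 for counting error.

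**Figure D4:**
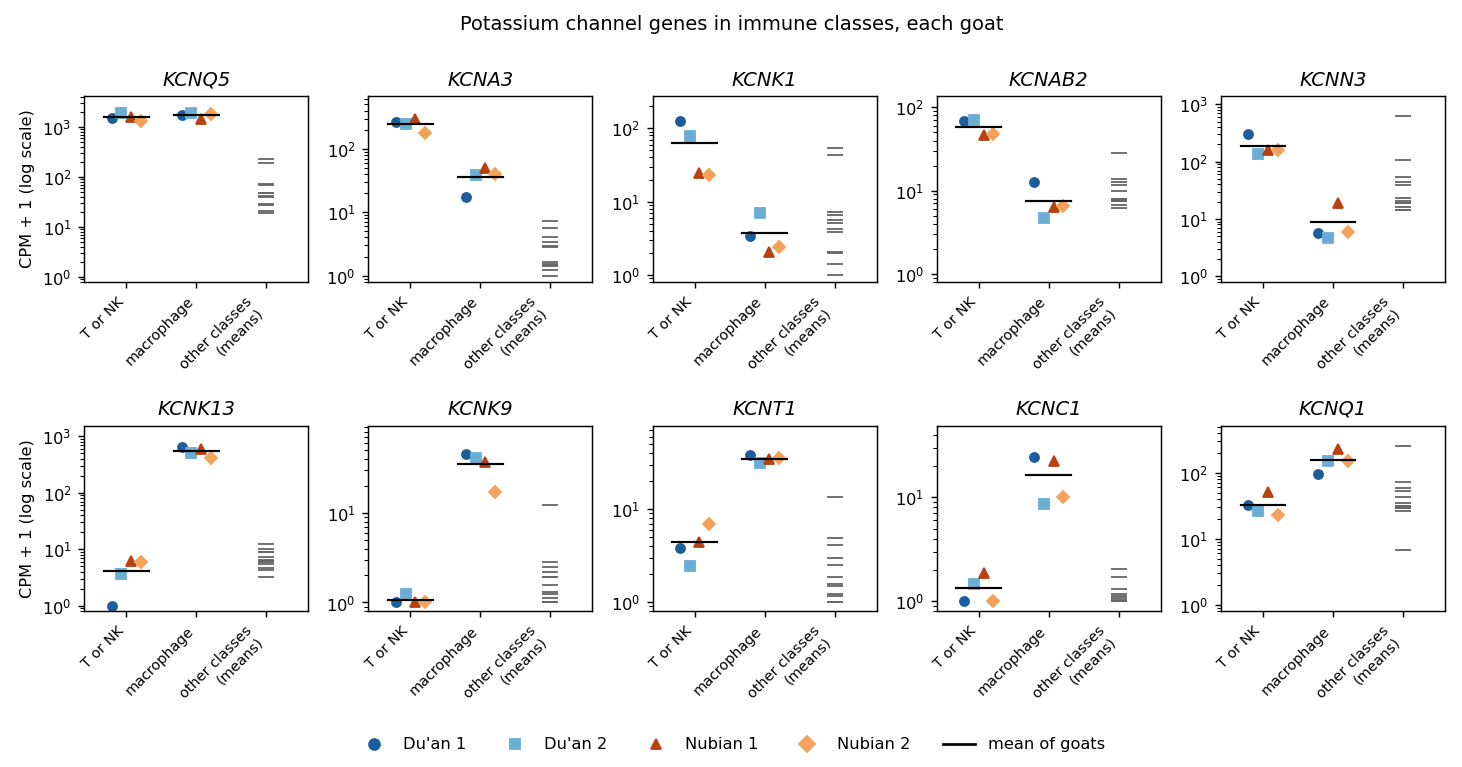
CPM + 1 on a log scale of 10 potassium channel genes (panels) in T or natural killer and macrophage nuclei, with a point per goat, a bar at the mean and grey dashes for the means of the other 12 classes. KCNQ5 was high in both immune classes, KCNA3, KCNK1 and KCNAB2 were above macrophages in T or natural killer nuclei, and KCNK13, KCNK9, KCNT1 and KCNC1 were highest in macrophages.

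There were 5 classes made of a pair of clusters. Their values by cluster come from pooled nuclei or single goats and carry no test. In blood endothelium, KCNQ3 lay mostly in cluster 14, led by CA4, ABCG2 and VWF, with 171, 149, 47.5 and 94.8 CPM in the 4 goats, and was at 9.79, 41.8, 10.4 and 9.38 CPM in cluster 21, led by BMX, GJA5 and DKK2. KCNJ2 and KCNT1 lay the other way, with 27.4, 20.9, 29.6 and 15.6 CPM of KCNT1 in cluster 21 and 5.14, 1.502, 13.4 and 0 CPM in cluster 14. The pooled KCNJ2 level was 22.1 CPM in cluster 21 and 7.23 CPM in cluster 14. Among macrophages, cluster 17 (leading genes VSIG4, KYNU and MSR1) held 666 CPM of KCNK13 and 2311 CPM of KCNQ5. Cluster 16 (C1QA, C1QB and C1QC), with shallow nuclei at 0.403 of the median depth of their libraries, held 83.5 and 459.6 CPM.

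In T or natural killer nuclei KCNA3 was near equal in both clusters, at 244 CPM in cluster 7 (CD6, THEMIS) and 239 CPM in cluster 25 (GNLY, CCL5, CTSW). KCNQ5 was not, at 1949 and 593 CPM. In lymphatic endothelium KCNIP4 and KCNN3 were at 5728 and 669 CPM in cluster 12 (RELN, FLT4, PROX1) and at 1062 and 51.5 CPM in cluster 26 (CCL21, SOX18), which lies at 0.355 of library depth. Fibroblasts showed the widest gap: 87 nuclei of cluster 28 (EBF2, MFAP5, VEGFD) held 7913 CPM of KCNB2 and the 769 nuclei of cluster 18 (LUM, BGN, FAP) held 32.7 CPM. The fibroblast value of KCNB2 over goats, 3704, 4243, 109 and 1626 CPM in Du'an 1, Du'an 2, Nubian 1 and Nubian 2, moved with the share of cluster 28, which was 18 of 54, 46 of 88, 11 of 672 and 12 of 42 nuclei in the same order. Its class call (log2 fold change 4.73 ± 0.28, edgeR adjusted p = 1.4e-18) reversed in 1 alternative clustering, given in the closing section.

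**Figure D5:**
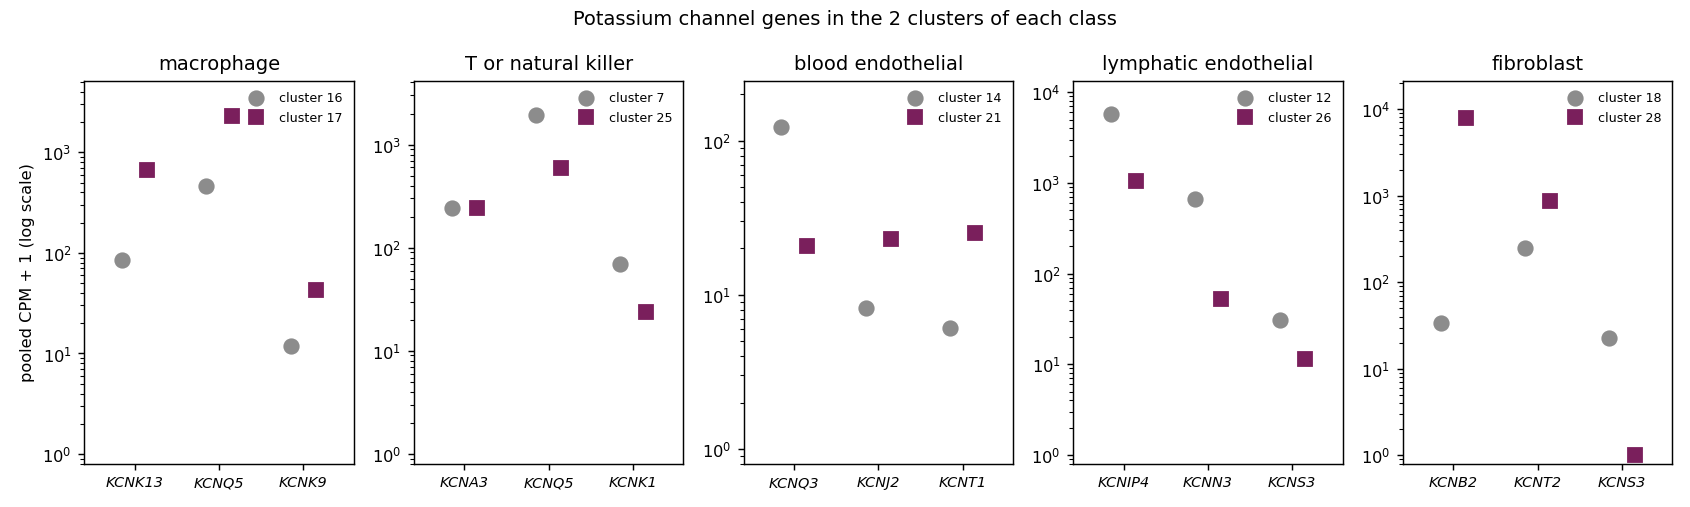
Pooled CPM + 1 on a log scale of 3 potassium channel genes in the 2 clusters of each of 5 classes, with a grey circle for the lower-numbered and a purple square for the higher-numbered cluster. KCNQ3 and KCNT1 were higher in opposite blood endothelial clusters, KCNK13 and KCNQ5 were higher in macrophage cluster 17, and KCNB2 separated both fibroblast clusters.

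The remaining classes had leading members of their own. Theca, the androgen-producing layer of the follicle, had 9 members higher and 2 lower, KCNB2 and KCNQ5 (all genes 9.06% and 7.71%), led by KCNIP1 at 4283, 3079.6, 2067 and 3396 CPM in Du'an 1, Du'an 2, Nubian 1 and Nubian 2 and KCNG3 at 86.4, 118, 57.2 and 73.2 CPM, each the highest class in all goats (log2 fold change 3.48 ± 0.22 and 3.39 ± 0.41, edgeR adjusted p = 2.4e-17 and 1e-08). KCND3 was called there with 192, 14.5, 4.76 and 3.49 CPM, and without Du'an 1 its fold change was 1.44 and not called, as at resolution 0.4 (1.40) and with at least 50 nuclei per sum (1.28). Epithelial nuclei had 14 members higher and 5 lower, KCNG3, KCNMA1, KCNK12, KCNN3 and KCNC2 (all genes 15.7% and 8.82%), led by KCNH1 at 81.5, 282, 355 and 461 CPM and KCND2 at 40.7, 727, 282 and 2117 CPM, again the highest class in each goat but with a wide spread. Fibroblasts had 11 members higher and 4 lower, KCNAB1, KCNN2, KCNIP1 and KCNC2 (all genes 14.6% and 5.92%). Ciliated nuclei, measured in Du'an 2 and Nubian 2 only, had 15 higher and 6 lower (all genes 17.1% and 9.15%). They were led by KCNRG, a regulator related to the channels' assembly domain, at 183 and 124 CPM from 112 UMIs. KCNRG is among 16 of the 94 members that overlap other annotated loci. These 16 include KCNAB1, KCNIP1, KCNIP4, KCNQ1, KCNQ5, KCNB2, KCND2, KCND3, KCNMB3 and KCNMB4. How reads of such loci were counted was not examined, and the levels of these members could be affected.

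Of the members fixed for their textbook roles in vessels and immune cells, several were near the limit of detection. KCNJ11, the other ATP-sensitive pore, had 2 UMIs in all kept nuclei. KCNA5, a Kv1 channel of vascular muscle, had 12 UMIs and KCNE4, an accessory subunit, had 37. KCNN4, the intermediate-conductance channel of lymphocytes and endothelium, had 27 in the kept nuclei, with 13 of them in macrophages, while all nuclei before filtering held 364. None of them was tested, and their absence from a class is not shown at this depth.

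The setting is given by 3 lists of related genes. Among 9 partner subunits that carry no KCN name, 5 were tested. ABCC9, the sulfonylurea receptor that pairs with KCNJ8, rose in pericytes to 143 ± 67.7 CPM and in smooth muscle to 75.7 ± 30.02 CPM (log2 fold change 4.50 ± 0.35 and 3.60 ± 0.27, edgeR adjusted p = 6.7e-15 and 1.5e-15), and it was 35.4 ± 44.1 CPM in common progenitor GCs, also a rise (2.45 ± 0.29, adjusted p = 1.4e-09). In smooth muscle 3 of 5 rose, the others being DPP10 and LRRC38, and in pericytes 2 of 5. DPP6, a partner of Kv4 channels, rose in ciliated nuclei (137 ± 95.4 CPM, n = 2) and blood endothelium (36.7 ± 4.73 CPM, n = 4), and DPP10, its relative, in mural GCs (212 ± 42.9 CPM).

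Of 14 HCN and voltage-gated calcium channel genes, 7 were tested. In smooth muscle 4 rose, in mural GCs 4, in cycling GCs 3, in macrophages 0, where 4 fell. The shares of all genes called higher or lower in each class are those given above beside its KCN members. CACNA1C, the L-type pore of muscle, stood at 1274 ± 119 CPM in pericytes and 610.0 ± 127 CPM in smooth muscle, and fibroblasts had a mean of 619 CPM. CACNA1D, another L-type pore, stood at 318 ± 305 CPM in theca. Of 11 genes for the Na,K-ATPase and for chloride cotransport 7 were tested, and 3 rose in each of the 4 GC states and in blood endothelium, with 1 lower in common progenitor GCs. In theca 1 rose and 4 fell. ATP1B3, a pump beta subunit, was at 168 ± 89.5 CPM in mural and 71.9 ± 6.29 CPM in cumulus GCs. The median log2 fold change of the tested calcium and HCN channels was 1.06 in smooth muscle and -1.62 in macrophages, beside 0.01 and -0.02 over all genes tested. These genes were listed as context, and the lists were given no test of their own. Each list had few genes tested, so its counts describe those genes only and are no result about the list.

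Between breeds, Nubian and Du'an goats were compared within 12 classes that had all 4 goats, 2 against 2. Of 253 tests of a member none passed edgeR's adjusted p of 0.05, and none of 96835 tests over all genes did, so the share called was 0% for both. The smallest adjusted p of a member was 0.14. At an unadjusted p under 0.05 stood 29 tests of members (11.5%) and 4260 of all genes (4.40%), and DESeq2 called 3 members and 304 genes in all. The 3 members that DESeq2 called were chosen here after their values were seen. KCNB2 in cycling GCs stood at 99.0, 119, 22.2 and 25.6 CPM in Du'an 1, Du'an 2, Nubian 1 and Nubian 2, KCNJ3 in smooth muscle at 90.6, 144, 29.99 and 27.9 CPM, and KCNK1 in T or natural killer nuclei at 125, 76.9, 23.9 and 21.8 CPM. Both Du'an goats were above both Nubian goats in each case. Since these members were picked by their call between breeds, that order adds no support. The fold changes, Nubian minus Du'an, were -2.14, -1.92 and -2.07 (log2), with edgeR adjusted p of 0.9997, 0.74 and 0.14. Each breed is its 2 animals here, and a difference between breeds cannot be told from one between those goats.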

How the data were processed

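Nuclei of the left ovaries were sequenced on a droplet platform, and the authors aligned the reads and deposited, for each goat, UMI counts by gene and barcode. Per the labels this was done with Cell Ranger 5.0.0, while the file headers name 3.1.0, and the libraries were not normalized. Deposited tables of marker comparisons, which hold fold changes and p-values, were not used. Nuclei over 2 SD from the mean UMI or gene number of their library, or with over 20% mitochondrial UMIs, were removed. Scrublet marked 151 nuclei, which were also removed.

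Clustering used scanpy 1.11.5 and leidenalg 0.10.2 (resolution 0.8; granulosa nuclei again at 0.5) on 2000 variable genes that held neither KCN nor marker genes. Naming limits were set after seeing the data. Sums of at least 20 nuclei per goat and class were tested with edgeR 4.0.16 (TMM, quasi-likelihood, Benjamini-Hochberg adjusted p, goat as block; breeds without a block). DESeq2 1.42.0 was an alternative. The fits were tested on simulated data with 200 changed genes. Shares of nuclei were compared after thinning to 1000 UMIs. Nuclei with fewer UMIs were left out of the thinned shares, at 734, 491, 999 and 656 named nuclei in Du'an 1, Du'an 2, Nubian 1 and Nubian 2. Named genes were those called higher with a log2 fold change of at least 1 and at least 10 CPM, up to 5 per class by fold, and up to 3 per direction in pairs, plus 14 preset members. The SE is the size of the log2 fold change over the root of the F statistic. The members, the related lists and the rule were chosen with earlier results of these data known. Some genes that met the rule are not reported here.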

Additional observations from a re-analysis of the deposited data

Results flagged for a closer look

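In some clusters that met no class name and entered no comparison, members stood above the highest class mean, and none of these differences was tested. KCNC2 had 4819 CPM pooled in cluster 11, against a highest class mean of 2806 CPM in cumulus GCs, and the same cluster held 484 CPM of KCNK12, against 251 CPM in common progenitor GCs. Of its 1910 nuclei 1637 came from Du'an 1. KCNC2 also stood at 3982 CPM in GC subcluster 11 and at 3117 CPM in GC subcluster 3. Subcluster 3, with 2237 of 2381 nuclei from Nubian 2, held 271 CPM of KCNK12. KCNK2 had 212 CPM in GC subcluster 11, against 134 CPM in mural GCs. KCNH2 had 66.5 CPM in GC subcluster 5 and 54.0 CPM in GC subcluster 6, against 51.4 CPM in cumulus GCs. Subcluster 5 had 1706 of its 1801 nuclei from Nubian 1. KCNQ3 had 152 CPM in GC subcluster 6, against 120 CPM in cumulus GCs. State and goat cannot be told apart in subclusters filled by a single goat.

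In ciliated nuclei KCNMB2, a beta subunit of BK channels, had 27.5 CPM in Nubian 2, from 12 UMIs, and 0 CPM in Du'an 2, the only goat measured of each breed. Its difference to the other classes was 5.48 higher on the log2(CPM + 1) scale in Nubian 2 than in Du'an 2, a value that depends on the pseudocount and is no bound. This difference was not tested.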

How the results depend on the processing

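Of 110 named gene and comparison pairs, 95 kept their direction and their call under every alternative that could be run. Of the 1261 values, 30 lost the call and 3 reversed. The reversed values all belong to KCNB2. Its fibroblast fold change was -1.94 with KCN and marker genes among the variable genes, and its smooth muscle minus pericyte difference was 0.15 in that clustering and 0.0013 without the highest doublet scores. The cause was not tested. At resolution 1.2 and without the highest doublet scores no cluster met the cumulus list, so 58 and 65 pairwise calls could be made instead of 111, and at resolution 1.2 there were 37 GC calls instead of 57. Leaving out a goat gave 131 to 154 higher and 78 to 96 lower class calls, against 165 and 105, and 82 to 91 pairwise calls. The lone goat of a class was then taken to vary like the others. Naming the shallow clusters, an alternative chosen after seeing the data, changed no named call.

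Between breeds, where 0 members and 0 of 96835 tests of all genes were called, DESeq2 called 3 members (all genes 304), and the test without a filter on low counts 25 (all genes 1973 of 204332). Leaving out a goat gave 0 to 7 members, 0 without Du'an 1 (all genes 63), 2 without Du'an 2 (51), 4 without Nubian 1 (878) and 7 without Nubian 2 (538). Replicate numbers do not pair the goats, with correlations of deviations from -0.25 in cycling GCs to 0.28 in epithelial nuclei. The replicate block called 0 members and, over all genes, 187 higher and 1 lower in Nubian goats. The crossed pairing, chosen after seeing the data, called 1 member, KCNJ3 in smooth muscle, and 4 higher and 7 lower over all genes. Unthinned shares of nuclei were higher, at 36.8% for KCNA3, 42.3% for KCNN3, 59.9% for KCNT2 and 48.2% for KCNK12. KCNQ5 in macrophages went the other way, at 42.6% unthinned and 46.4% thinned. The 44 members that were not tested could not be compared at this depth.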

Other observations

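KCNN4 lay mostly outside the nuclei analysed. Of its 364 UMIs, 334 (91.8%) were in nuclei removed because their UMI or gene number was over 2 SD from the mean of their library, against 24.4% of the UMIs of all genes. They came from 103 nuclei, of which 68 were in Nubian 2 and 27 in Du'an 2. The median UMI number of these nuclei was 74174 in Nubian 2 and 42278 in Du'an 2. Among the members that were highest in macrophages, the share was 44.4% for KCNK13, 46.4% for KCNC1, 38.0% for KCNK6, 37.1% for KCNT1, 32.6% for KCNK9 and 21.7% for KCNQ5. KCNC2 had 19.3%. The class of the removed nuclei was not determined.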
